A study of Nematostella vectensis with 84 samples.

Results

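The genes described here were 100 gene models of the starlet sea anemone, Nematostella vectensis. They fell after T0 in calcium-free KSW, cytochalasin D and streptomycin, and ranked first by the smallest of their 3 falls. They were selected on measured values as follows. Reads were scaled to CPM, counts on a common library size, here the reads outside the 10 most abundant genes, and 5912 of 23510 gene models averaged 20 CPM or more. For each treatment, the mean log2(CPM + 5) of the later time points was set against that of T0, and 270 genes (4.57%) had a difference of -0.3 or less in all 3 treatments. The 100 genes whose smallest fall was largest were kept. The last gene kept, NVE15969, had a difference of -0.44 in calcium-free KSW as its smallest fall, and the first gene left out, NVE16924, had -0.44 in streptomycin. At the bound, NVE4068 lay just inside with -0.3002 in streptomycin, and NVE3530 lay just outside with -0.2994 in cytochalasin D. Since the genes were chosen by these values, the difference between the later time points and T0 is described without a test. Differences among the later time points and between libraries of 1 group were not used directly in the choice and were tested. The values behind them did enter the choice through the group means. The files do not pair the identifiers with names, and 0 of 23510 matched the reference gene table, so the genes are called by identifier and no sequence is shown.

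The libraries were made from total RNA of oral disc and tentacles of adult animals that had been exposed to 1 of the 3 agents. Calcium-free KSW (a medium; the labels do not write the abbreviation out) and cytochalasin D were each sampled at T0, T1, T2, T3 and T4, at hourly points of recovery. Streptomycin was sampled at T0, T1, T2 and T3, which stand for different lengths of exposure, each followed by 1 hour of recovery. Each of the 14 groups had 6 libraries, lettered A to F. The labels give no strain, dose or length of exposure, and they do not say whether T0 came before or after the exposure. No untreated series over time was analysed here. The design text speaks of 3 replicates in each of 2 conditions, without saying which letters would form a condition. The labels do not say that the letters are separate animals, and p-values therefore cover the spread among libraries, which may be technical. With no named genes, tissue markers were not checked, and fewer cells of a type and less RNA per cell cannot be told apart in these bulk libraries.

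Tentacles of sea anemones carry stinging cells and hair bundle mechanoreceptors, sensory structures built on actin-filled stereocilia that respond to vibration of swimming prey. Cytochalasin D blocks the growth of actin filaments, streptomycin is an aminoglycoside antibiotic that blocks mechanotransduction in vertebrate hair cells, and removal of calcium weakens adhesion and the extracellular links that depend on it. Anemone hair bundles are known to lose function after such insults and to regain it over a period of recovery.

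The 83 libraries used held 194043 to 584632 reads, with a median of 311684, so that 1 read equalled 2.07 to 9.46 CPM. Streptomycin libraries were the shallowest, with a mean of 267931 ± 40602 reads (SD, n = 24), and the 10 most abundant genes took 37.1% ± 4.7 of their reads. The calcium-free KSW library F at T2 was left out by the rule. In it, 84 of the 100 genes lay below the T0 mean of calcium-free KSW, against 61.6% of all 5912 genes. Its mean log2(CPM + 5) over the 100 genes was 4.69, below the range of 5.30 to 5.85 in the other 5 libraries of that group. Its mean over all 5912 genes, 5.61, was also low. With it kept, all 100 genes stayed inside the bound of the rule and 87 stayed among the first 100.

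All 100 genes fell in every treatment by construction. The rule also favoured falls of like size, since it ranked genes by their smallest fall, so the sizes are only described. The median difference of the later time points from T0 in calcium-free KSW, cytochalasin D and streptomycin was -0.69, -0.80 and -0.68 on the log2(CPM + 5) scale, which understates changes of low genes. Over all 5912 genes, the medians were -0.05, -0.03 and -0.03 in the same order. A difference of -1 or less was reached by 20, 26 and 21 genes in these treatments, and by 6 genes in all 3. The deepest fall was in calcium-free KSW for 27 genes, in cytochalasin D for 36 and in streptomycin for 37. Their mean level ran from 21.0 to 2101 CPM with a median of 49.96 CPM, against a median of 46.5 CPM over all 5912 genes.

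**Figure D1:**
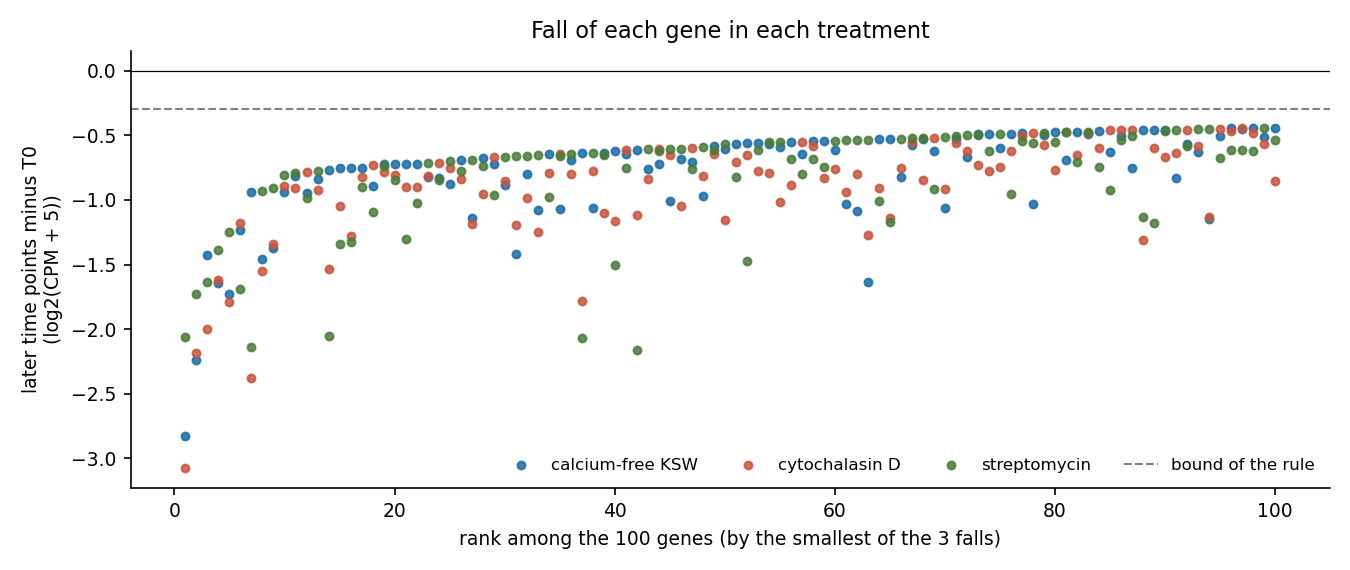
Difference of the later time points from T0 on the log2(CPM + 5) scale (y) for each of the 100 genes, ordered by the smallest of their 3 falls (x), with 1 point per treatment and the bound of the rule as a dashed line. Beyond the first 9 genes, most points lie between -0.44 and -1.5, and the treatment with the deepest fall changes from gene to gene.

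The fall was already present at T1 and was deeper at the last time point in calcium-free KSW and cytochalasin D. In calcium-free KSW, the median difference from T0 at T1, T2, T3 and T4 was -0.43, -0.63, -0.68 and -0.95. In cytochalasin D, it was -0.38, -0.84, -0.88 and -1.07 at the same time points. Streptomycin, whose time points are lengths of exposure, had -0.57, -0.79 and -0.78 at T1, T2 and T3. The medians of all 5912 genes stayed between -0.12 and 0.03 over these 11 groups. The lowest time point was T4 for 55 of the 100 genes in calcium-free KSW, and for 63 in cytochalasin D, where the shares of all genes were 36.1% and 27.2%. In streptomycin the lowest point was T1 for 24 genes, T2 for 38 and T3 for another 38, where the shares of all genes were 33.4%, 17.6% and 23.8%. The rule leaves 0 listed genes with their lowest point at T0, where 19.5%, 22.9% and 25.1% of all genes in calcium-free KSW, cytochalasin D and streptomycin had theirs, so these counts and shares are not on an equal footing.

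Single libraries overlapped more than these medians show. Every library of the last time point lay below every T0 library for 13 of the 100 genes in calcium-free KSW (1.83% of all genes), for 29 in cytochalasin D (1.98%) and for 14 in streptomycin (0.93%); the rule used this contrast, so the counts are descriptive. All later libraries lay below all T0 libraries for 3 of the genes in streptomycin and for 0 in the other treatments. In calcium-free KSW, the mean log2(CPM + 5) over the 100 genes was 5.25 ± 0.12 at T4 and 6.31 ± 0.24 at T0. Cytochalasin D had 5.42 ± 0.14 at T4 and 6.62 ± 0.16 at T0, and streptomycin had 5.35 ± 0.22 at T3 and 6.28 ± 0.26 at T0 (SD, n = 6 each). For this mean, the last time point and T0 did not overlap in any treatment. The genes were chosen by this contrast, so the separation is likewise only a description.

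**Figure D2:**
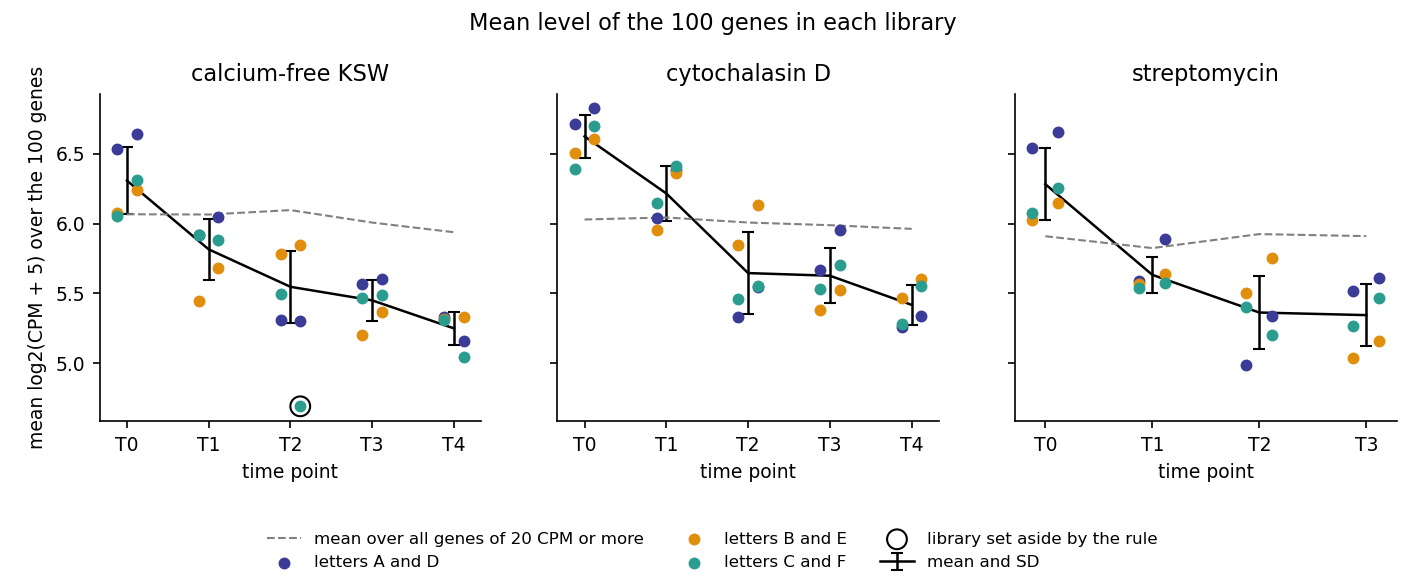
Mean log2(CPM + 5) over the 100 genes (y) in each library by time point (x), coloured by letter pair, with the group mean and SD in black and the mean over the 5912 genes of 20 CPM or more as a dashed grey line. Letters A and D give the highest values at T0 in each treatment, and the encircled library is the one set aside, at 4.69.

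The course after T1 was tested with edgeR's quasi-likelihood test, adjusted over all genes, on contrasts that leave T0 out. The later values entered the choice through their mean, so a gene very low at only some later time points could enter by them. The shares of listed genes called, and their directions, are therefore not independent of the choice. The on or off states of some genes outside the list, described below, also differed between T1 and T4 libraries. Time and this difference cannot be told apart in T4 against T1. In cytochalasin D, 27 of the 86 genes of the list that passed the filter on low counts changed between T4 and T1, 25 of them lower and 2 higher at T4, against 5.34% of all genes tested (3.2% lower and 2.14% higher). The median log2 change of the 25 was -1.69, and over the 86 genes it was -0.81, against 0.01 over all genes. In calcium-free KSW, 9 of 82 genes changed, 7 lower and 2 higher at T4, against 2.75% of all genes (1.23% lower and 1.52% higher). In streptomycin, 4 of 48 genes changed between T3 and T1, each lower at T3, against 1.26% of all genes (0.978% lower and 0.28% higher). These 4 calls became 0 without letter B or E (0% of all genes), 0 to 3 over all left-out letters (0% to 1.06%), and 1 with letter pairs summed (0.266%). The genes that did not pass the filter, 14 in cytochalasin D, 18 in calcium-free KSW and 52 in streptomycin, have no test.

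A test for any difference among the later time points gave 22 of 86 genes in cytochalasin D (3.09% of all genes), 3 of 82 in calcium-free KSW (0.76%) and 0 of 48 in streptomycin (0.14%). For streptomycin, 21 of the 48 genes had an unadjusted edgeR p under 0.05, against 13.2% of all genes, and DESeq2 called 3, against 0.804%. Whether the change between T4 and T1 differed between calcium-free KSW and cytochalasin D was tested directly. There edgeR called 0 of 96 genes (0.133% of all genes), with 19 at an unadjusted p under 0.05 (9.52% of all genes). The calls in calcium-free KSW were few and depended on single libraries and on counting the letters separately. Between T4 and T1, edgeR called 2 to 8 genes when a letter was left out of every group (0.296% to 2.9% of all genes). It called 2 when the T2 library F was kept (0.208%), and 0 of 98 with letter pairs summed (0%). In cytochalasin D, summed letter pairs gave 19 of 100 (1.6% of all genes).

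**Figure D3:**
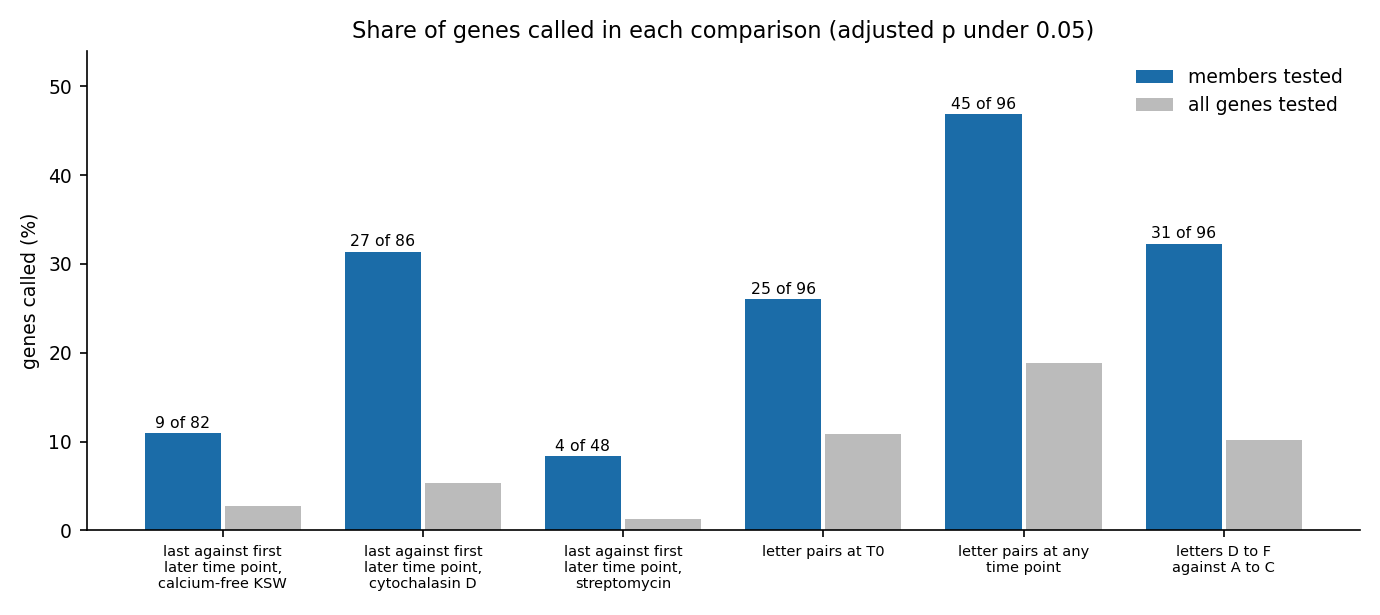
Share of genes called at an edgeR adjusted p under 0.05 (y, percent) in 6 comparisons that leave out the contrast of later time points with T0, for the genes of the list that were tested (blue, with counts) and for all genes tested (grey). The blue bars are the higher ones in all 6, from 8.33% in streptomycin to 46.9% between letter pairs at any time point. T0 and later values entered the choice of genes, so the shares for time points and letter pairs are not independent of it.

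NVE15053 had the clearest late fall. In cytochalasin D its mean level at T0, T1, T2, T3 and T4 was 155.2 ± 17.5, 169.7 ± 88.02, 42.3 ± 12.3, 30.5 ± 17.4 and 18.0 ± 11.4 CPM (SD, n = 6 each). Its lowest, median and highest libraries were at 5.33, 14.2 and 37.2 CPM at T4, against 65.3, 178.5 and 273.9 CPM at T1. The T4 and T1 libraries did not overlap, and the log2 change was -3.08 ± 0.38 (SE, edgeR adjusted p = 5.42e-06). In streptomycin it had 4.30, 11.3 and 12.1 CPM at T3, against 14.3, 44.2 and 73.4 CPM at T1, again without overlap. That change was -2.27 ± 0.47 (SE, edgeR adjusted p = 0.0198), but the call was lost when letter B, C, E or F was left out (edgeR adjusted p of 0.0584 to 0.0885), in 1 fit of all libraries (0.0582) and with a term for sample numbers (0.133). In calcium-free KSW its change of -1.44 ± 0.55 between T4 and T1 did not pass (edgeR adjusted p = 0.136).

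NVE21006 and NVE16297 followed a like course in cytochalasin D. NVE21006 had 21.3, 47.5 and 71.6 CPM in its lowest, median and highest libraries at T4, against 78.9, 198 and 380 CPM at T1. The groups did not overlap, and the log2 change was -2.11 ± 0.36 (SE, edgeR adjusted p = 0.00076). NVE16297, the gene with the second deepest fall from T0 in both cytochalasin D and streptomycin (differences of -2.38 and -2.14), had 35.7, 79.8 and 196 CPM at T4 in cytochalasin D, against 150, 372 and 815 CPM at T1. Its groups overlapped in their extremes, and the log2 change was -2.19 ± 0.43 (SE, edgeR adjusted p = 0.00226). In streptomycin its change between T3 and T1, -1.22 ± 0.36, did not pass (edgeR adjusted p = 0.0763).

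NVE10874 was lower at T4 than at T1 in both recovery series. In calcium-free KSW it had 0, 5.44 and 10.7 CPM at T4, against 15.3, 47.3 and 67.2 CPM at T1, with no overlap and a log2 change of -2.65 ± 0.54 (SE, edgeR adjusted p = 0.00992), a call that was lost with letter pairs summed (0.09997). In cytochalasin D it had 5.33, 18.6 and 31.9 CPM at T4, against 26.3, 62.6 and 102 CPM at T1, with an overlap at the extremes and a log2 change of -1.75 ± 0.39 (SE, edgeR adjusted p = 0.006). Its T1 mean was above its T0 mean in both treatments, 44.4 ± 20.5 CPM at T1 and 36.9 ± 18.6 CPM at T0 in calcium-free KSW, and 63.8 ± 24.97 CPM at T1 and 56.5 ± 27.6 CPM at T0 in cytochalasin D (SD, n = 6 each). It was not tested after streptomycin, where it averaged 48.7 CPM at T0, 30.9 at T1, 17.8 at T2 and 14.1 at T3.

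NVE16575 was lower at T3 than at T1 after streptomycin, with 35.9, 39.6 and 68.9 CPM at T3, against 60.0, 95.8 and 120.7 CPM at T1. The groups overlapped by the highest T3 library, and the log2 change was -1.18 ± 0.25 (SE, edgeR adjusted p = 0.0198). The edgeR adjusted p was 0.0503 to 0.116 without any 1 of the letters A, B, D, E and F, 0.0756 with letter pairs summed, 0.0506 with no filter on low counts and 0.679 with a term for sample numbers. The 2 genes with the smallest p among those higher at T3, NVE7060 and NVE22805, did not pass, with log2 changes of 0.74 ± 0.24 and 1.01 ± 0.38 (SE, edgeR adjusted p = 0.111 and 0.175).

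Not every gene kept falling. NVE2452 and NVE7574 were low at T1 and back near their T0 level at T4 in both recovery series. NVE2452 in calcium-free KSW had means of 65.5, 16.6, 55.8, 38.1 and 71.0 CPM at T0, T1, T2, T3 and T4. In cytochalasin D it had 53.1 CPM at T0, 13.0 CPM at T1 and 62.6 CPM at T4. Its lowest, median and highest libraries were at 43.5, 74.2 and 87.5 CPM at T4, against 0, 17.0 and 38.9 CPM at T1, in calcium-free KSW. The groups did not overlap, and the log2 change between T4 and T1 was 2.11 ± 0.44 for calcium-free KSW and 2.29 ± 0.48 for cytochalasin D (SE, edgeR adjusted p = 0.0125 and 0.00434). NVE7574 changed by 2.05 ± 0.50 and 1.57 ± 0.46 in these treatments (SE, edgeR adjusted p = 0.0215 and 0.0397). Leaving out letter D ended the call of NVE2452 in calcium-free KSW (edgeR adjusted p = 0.0595), as did keeping library F of T2 (0.0595) and summing letter pairs (0.124). The call of NVE7574 in cytochalasin D ended without any 1 of the letters A, B, C, D and F (edgeR adjusted p of 0.0725 to 0.103), with letter pairs summed (0.141) or in 1 fit of all libraries (0.0648), and in calcium-free KSW without letter A, D or E (0.0709 to 0.107), with library F of T2 kept (0.0787) or with letter pairs summed (0.173). Both genes also differed between letter pairs at T0 (edgeR adjusted p = 9.62e-07 and 2.03e-08), with their lowest T0 levels in letters B and E of every treatment.

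The letters were not interchangeable. Letters A and D, B and E, and C and F of a time point resembled each other across treatments: deviations from group means correlated with a median of 0.21 between libraries of the same letter pair and time point in different treatments, and with a median of -0.12 for different letter pairs. These are correlations across genes, which are not independent replicates. The time comparisons above count all 6 letters separately, which can make their SEs and p-values too small. An on or off state of 13 genes outside the list, each at 15 CPM or more in some and under 2 CPM in other combinations of time point and letter pair, was the same in each treatment in 527 of 535 cases. The T0 libraries of the 3 treatments thus carried the same 3 on and off patterns, and the 3 falls from T0 may not be independent of each other. The rule used the T0 mean, so a gene very high in 1 letter pair at T0 could enter the list through that pair. It also used the later means, so a gene absent from a letter pair at a later time point could enter through that absence.

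Differences between letter pairs were frequent among the listed genes. At T0, 25 of the 96 genes tested differed between letter pairs in a fit of all libraries, against 10.9% of all genes, and at any time point 45 of 96 did, against 18.8%. With the calcium-free KSW library F of T2 kept, the counts were 22 and 46, against 7.83% and 17.2%. T0 values and later means entered the choice of genes, so neither share is independent of it. Each pair of a time point has 2 libraries in each treatment, and libraries of a pair are counted as independent in this fit. The pair with the highest T0 level was the same in all 3 treatments for 31 of the 100 genes, against 22.1% of all genes, and it was A and D for 23 of them, against 10.5%. Fitted alone, calcium-free KSW gave 17 of 82 genes at T0 (6.26% of all genes), cytochalasin D 7 of 86 (3.24%) and streptomycin 15 of 48 (7.51%).

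NVE6912, which ranked first by its smallest fall (-2.83, -3.07 and -2.06 in calcium-free KSW, cytochalasin D and streptomycin), was present or absent by letter pair. At T0 in calcium-free KSW it had 771 and 891 CPM in letters A and D, 235 and 221 CPM in B and E, and 0 in C and F. Cytochalasin D had 806 and 733, 218 and 380, and 0 and 0 CPM in the same pairs, and streptomycin had 416 and 617, 152.9 and 259.9, and 0 and 0. The 3 steps recurred in every treatment, and the pairs differed at T0 with an edgeR adjusted p of 4.3e-27. Later it was present in A and D at T1, in B and E at T2 and in A and D at T3, at pooled levels of 209.6, 183.6 and 239.1 CPM, and nearly absent elsewhere. At T4 it had 0 reads in all 12 libraries, which allows a level of up to 1.19 CPM (3 reads over their summed reads, counting error only).

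NVE22345 ranked second and followed the letter pairs only after T0. At T0 the lowest, median and highest libraries of calcium-free KSW were at 405, 528 and 638 CPM, those of cytochalasin D at 392, 493 and 535, and those of streptomycin at 515, 631 and 809, and its pairs did not pass a test there (edgeR adjusted p = 0.484). At T1, the means of letters C and F were 16.2, 19.5 and 9.47 CPM in the 3 treatments, against 392, 354 and 722 CPM in letters A and D and 865, 727 and 1279 CPM in B and E. The low state of C and F held at T2 and T3, with means of 7.1 to 35.3 CPM. At T4 all 3 pairs were low, and the libraries of calcium-free KSW had 0, 18.0 and 30.0 CPM, against 11.9, 392 and 867 CPM at T1. Its log2 change between T4 and T1, -4.66 ± 0.94 for calcium-free KSW and -3.97 ± 0.89 for cytochalasin D (SE, edgeR adjusted p = 0.00992 and 0.00711) did not hold when the letter pairs were summed (0.145 and 0.0991) or when letter E was left out (0.0641 and 0.0516), and in calcium-free KSW without letter A (0.062).

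In all, 7 of the 100 genes were under 2 CPM in at least 1 combination of time point and letter pair while present in others, against 0.727% of all genes, and 5 of them ranked among the first 9 of the list. All 7 were among the 45 called between letter pairs. NVE18617, named here after its values were seen, showed steps: over the 3 treatments it had 216, 221 and 441 CPM in letters A and D, B and E, and C and F at T0, 0 in A and D at T2, 0.7 in B and E at T3, and 237 to 524 CPM in the other 10 combinations. At T4 it had 513, 259 and 524 CPM in the same pairs, each above T0. It thus counted as falling through the combinations in which it was absent. NVE22805 differed at T0 in every treatment, with 555, 620 and 501 CPM in A and D, 152.7, 154.2 and 94.9 CPM in B and E, and 378, 458 and 336 CPM in C and F, for calcium-free KSW, cytochalasin D and streptomycin (edgeR adjusted p = 9.66e-15). Its later levels were 112.2 to 259.3 CPM on average per group.

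**Figure D4:**
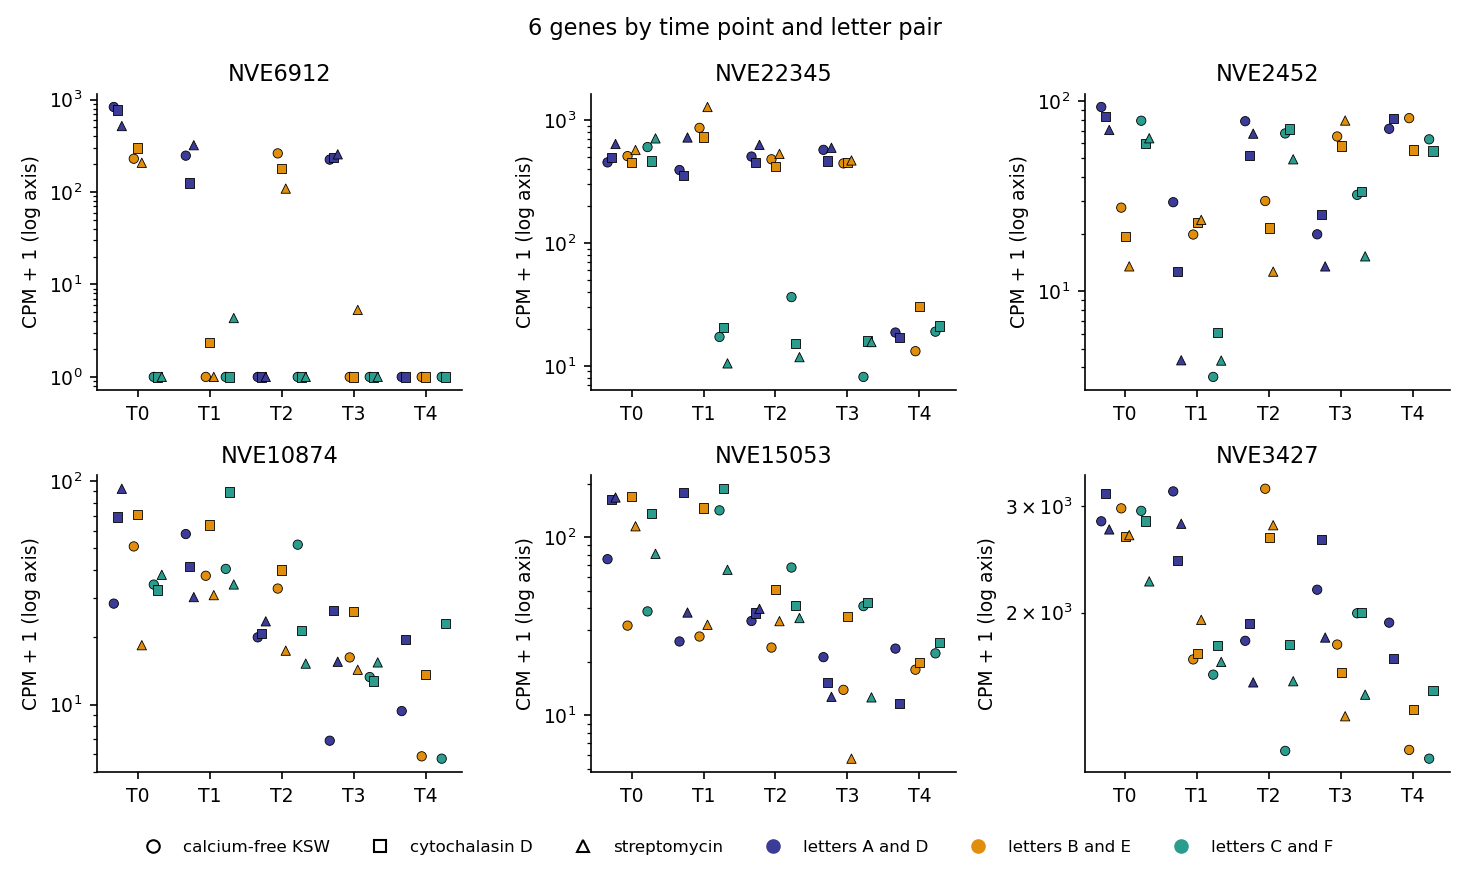
CPM + 1 (y, log axis) of 6 genes by time point (x), with 1 point per treatment and letter pair (mean of its libraries; colour for letter pair, shape for treatment). In NVE6912 and NVE22345 the 3 treatments lie together within each letter pair and switch between levels, whereas NVE10874 and NVE15053 are low in all pairs at the last time point.

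Later levels were also set against T0 within each letter pair, and then within 1 on and off pattern. Both are parts of the contrast that the rule used, so they are only described. No letter pair kept its T0 pattern at all later time points, so a fixed letter pair is not a fixed pattern. Within each pair of letters, the median difference of later time points from T0 for A and D, B and E, and C and F was -0.95, -0.65 and -0.56 in calcium-free KSW. The values were -0.97, -0.74 and -0.72 in cytochalasin D, and -0.97, -0.57 and -0.62 in streptomycin. A lower later level in all 9 combinations of treatment and letter pair was seen for 52 of the 100 genes, against 3.35% of all genes, a contrast that the rule used.

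Of the 3 patterns at T0, only that of letters B and E recurred later, in A and D at T1, B and E at T2 and A and D at T3. Against T0 libraries of this same pattern, the median difference for calcium-free KSW, cytochalasin D and streptomycin was -0.32, -0.52 and -0.42, with 83, 87 and 80 of the 100 genes lower. The medians over all genes were -0.02, -0.06 and -0.01. In all 3 treatments, 61 genes were lower, against 18.0% of all genes. At T1 alone, the medians within this pattern were -0.17, -0.28 and -0.35 in the same order of treatments. There 64, 73 and 69 of the 100 genes were lower, against 47.1%, 54.1% and 55.9% of all genes. These contrasts are part of the one the rule used. A test of T3 against T1 within this pattern called 0 of 92 genes by edgeR in calcium-free KSW and cytochalasin D together (0.0% of all genes), with 18 at an unadjusted p under 0.05 (7.42% of all genes), 70 of 92 genes lower and a median of -0.40, against -0.00 over all genes. In streptomycin, the same test called 0 of 92 (0.0%), with 16 at an unadjusted p under 0.05 (5.19% of all genes) and a median of -0.39. The pattern shared by T2 (letters C and F) and T4 (A and D, C and F) gave 0 of 68 genes by edgeR (0.0%) for T4 against T2, with 11 at an unadjusted p under 0.05 (6.87% of all genes) and a median of -0.06. These fits had 8, 4 and 11 libraries on their 2 sides together, and DESeq2 was not run for them.

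Of the 96 genes tested, 45 were called between letter pairs at any time point, against 18.8% of all genes, and 51 were not. The test compares pairs within a time point, so it does not cover a change of pattern between time points. At T4 the median difference of the 51 genes from T0 was -0.88 for calcium-free KSW and -0.97 for cytochalasin D. The rule used this contrast, so the values are only a description. The 45 genes called between pairs had -1.12 and -1.20 at T4.

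Letters D to F differed from A to C in a further way. Of the 96 genes tested, 31 differed between D to F and A to C, 29 higher and 2 lower in D to F, against 10.2% of all genes (5.67% higher and 4.57% lower). The median log2 difference of the 29 was 0.55. With the calcium-free KSW library F of T2 kept, 26 genes were called, against 7.44% of all genes. Fitted alone, cytochalasin D gave 28 of 86 genes tested (11.3% of all genes), calcium-free KSW 20 of 82 (16.8%) and streptomycin 1 of 48 (2.73%), and a test of the difference between treatments was not run. The fall from T0 was alike in both sets of letters, with medians of -0.72 in D to F and -0.68 in A to C for calcium-free KSW, -0.80 and -0.84 for cytochalasin D and -0.74 and -0.74 for streptomycin.

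NVE1806 had the smallest p. In cytochalasin D at T0 it had 683, 926 and 556 CPM in letters D, E and F, against 76.0, 80.8 and 51.3 CPM in A, B and C. At T4 it had 90.6, 320 and 240 CPM in D, E and F, against 21.3, 20.9 and 7.94 CPM in A, B and C. The sets did not overlap at either point, and over all treatments the log2 difference was 1.91 ± 0.22 (SE, edgeR adjusted p = 6.03e-10). NVE23145 had a log2 difference of 1.55 ± 0.20 and NVE2856 one of 1.53 ± 0.22 (SE, edgeR adjusted p = 1.56e-08 and 2.81e-07). The 2 genes lower in D to F, NVE12352 and NVE17246, had differences of -0.66 ± 0.12 and -0.27 ± 0.06 (SE, edgeR adjusted p = 3.31e-05 and 0.000928). NVE1806, NVE23145, NVE12352 and NVE17246 are named after their values were seen.

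NVE1806, NVE23145, NVE2856, NVE16297 and NVE21006 belonged to the one set of 3 or more genes linked by correlations of 0.6 or more between libraries, after group means and the means of time point and letter pair were removed. The set had 8 genes, a median correlation of 0.57 and a range of 0.24 to 0.77 over 83 libraries; it includes the difference between letters D to F and A to C, and it was found in these data, so it has no test. In cytochalasin D, its summed level was 4632 ± 1492 CPM in letters D to F at T1, against 1080 ± 320 CPM in A to C (SD, n = 3 each). At T4 it was 1152 ± 283 CPM in D to F, against 434 ± 101 CPM in A to C. In streptomycin, it was 458 ± 69 CPM in D to F and 439 ± 56 CPM in A to C at T3, and 1754 ± 819 CPM in D to F and 1869 ± 1003 CPM in A to C at T0.

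**Figure D5:**
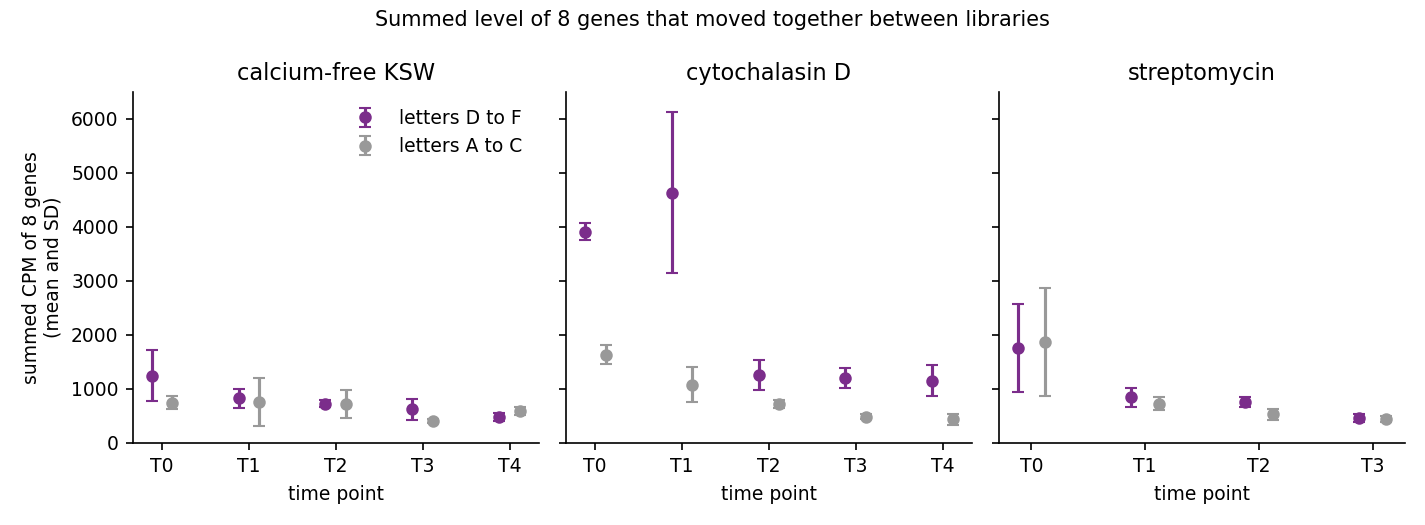
Summed CPM of 8 genes that varied together between libraries (y; mean and SD of 3 libraries, 2 for D to F of calcium-free KSW at T2) by time point (x), for letters D to F (purple, left) and A to C (grey, right). In cytochalasin D the purple points are above the grey ones at each time point, by the most at T1 (4632 against 1080 CPM).

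The most abundant gene of the list, NVE3427, had a later mean below T0 in every treatment and letter pair. In calcium-free KSW its mean level at T0, T1, T2, T3 and T4 was 2916 ± 266, 2140 ± 855, 2235 ± 980, 1981 ± 357 and 1418 ± 415 CPM (SD, n = 6 each, 5 at T2). Cytochalasin D had 1513 ± 351 CPM at T4 and 2883 ± 338 CPM at T0, and streptomycin had 1542 ± 337 CPM at T3 and 2560 ± 279 CPM at T0. Its later changes did not pass, with edgeR adjusted p of 0.211, 0.311 and 0.134. The second most abundant, NVE17825, varied between libraries of a group: in cytochalasin D single libraries ran from 548 to 7220 CPM at T4 and from 657 to 6377 CPM at T0, and the groups overlapped throughout.

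The titles number the libraries. In streptomycin, a lower range of numbers made up T0, T1 and 2 libraries of T2, and a higher range made up the other 4 of T2 and all of T3. The labels do not say what the numbers stand for. At T2 the median difference from T0 was -0.90 in the 2 libraries of the lower range and -0.64 in the 4 of the higher range. The former were letters A and B and the latter C to F, so range and letter cannot be told apart there. Since T1 lay in the lower range and T3 in the higher, only the T2 libraries separate the range from T3 against T1. With a term for this range, edgeR called 0 of the 48 genes between T3 and T1 in streptomycin (0% of all genes), against 4 without it (1.26%). The median log2 change over the 48 genes was -0.46 with the term and -0.52 without it, and 34 and 39 of them were below 0, and the part of the range in these calls was not tested further.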

How the data were processed

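Deposited values are whole-number counts of reads per gene model in 84 libraries, which the authors gave as 1 unscaled table. Per the labels' protocols, a column kit was used for extraction and a published tag-based protocol for the libraries. The submitters' processing notes name Bowtie2. Its version, the counting tool, the build of the genome, the gene models and whether strand was used were not given in the sources used here.

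CPM and the list follow the rule stated in the results. The members, lists and tests were chosen with earlier results of these data known, and the comparison of the recovery series and those within a pattern were added after the data had been seen. Genes were tested on the counts with edgeR 4.0.16 (R 4.3.3; filterByExpr, TMM, glmQLFit, glmQLFTest), with Benjamini-Hochberg adjustment over all genes and a threshold of 0.05. SEs come from the F statistic. Each treatment was fitted alone for the time tests, and 1 fit of 83 libraries served for the letters. The fits were checked on simulated counts. DESeq2 1.42.0, other scalings and filters, summed letter pairs and left-out letters were alternatives.

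Genes were named by a rule: at most 2 per direction and comparison, by the lowest difference from T0, the smallest p, the highest mean CPM or the bounds of the list. To see whether letters pair libraries, deviations from group means were correlated across genes. Within a treatment, same-letter values ran from -0.16 to 0.34, not all above 0.1, and letters were not used as a block.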

Additional observations from a re-analysis of the deposited data

Results flagged for a closer look

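In 210 groups of 5 or 6 libraries examined for the named genes and for the mean of the 100 genes, 8 had a library whose gap to the others exceeded Dixon's 95% critical value, and chance flags about 1 in 20 groups. All values are log2(CPM + 5). The mean of the 100 genes was 5.89 in streptomycin library D at T1, against 5.54 to 5.64 in the others. NVE22345 had 5.33 in calcium-free KSW library C at T2, against 8.78 to 9.06, where library F, of the same letter pair, was set aside. NVE2856 had 7.33 and NVE10874 had 3.33 in calcium-free KSW library D at T0, against 4.29 to 5.22 and 5.19 to 6.01. NVE2452 had 2.32 in streptomycin library B at T2, with 0 reads, and NVE7574 had 5.52 in cytochalasin D library E at T1. NVE16575 had 6.21 in streptomycin library E at T3, and NVE17825 had 11.84 in cytochalasin D library A at T3.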

How the results depend on the processing

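Of the 100 genes, 80 stayed inside the rule on whole column totals and 79 with TMM scaling, 50 at a mean of 50 CPM or more, and 90 to 99 when a letter was left out. With the other scalings and the higher CPM bound, each gene lost had a mean under the CPM bound, and none was lost by a smaller fall. With a letter left out, all 100 passed the CPM bound. With whole totals and with TMM, all 100 genes remained below T0 in every treatment, and all-gene medians moved by less than 0.1.

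Calls among later time points are given as any difference and last against first. They were 3 and 9 of 82 genes for calcium-free KSW, 22 and 27 of 86 for cytochalasin D and 0 and 4 of 48 for streptomycin. The shares of all genes were 0.76% and 2.75%, 3.09% and 5.34%, and 0.14% and 1.26%. With no filter on low counts they were 27 and 25, 47 and 42, and 16 and 11 of 100 genes. The shares of all genes were then 1.44% and 1.41%, 1.91% and 1.82%, and 0.559% and 0.536%. With letter pairs summed they were 0 and 0 of 98, 12 and 19 of 100, and 0 and 1 of 90. Here 0.0138% and 0%, 0.846% and 1.6%, and 0.133% and 0.266% of all genes were called. With the letter as a replicate block they were 6 and 10, 29 and 29, and 3 and 5. Of all genes, 3.06% and 6.73%, 4.61% and 7.19%, and 1.01% and 1.92% were called. The letters share only a name within a treatment. In 1 fit of all libraries, calcium-free KSW gave 6 of 96 for any difference (2.03% of all genes). Streptomycin gave 2 and 2 of 96 in that fit (0.228% and 0.664%). Keeping library F of T2 gave 1 and 2 of 74 in calcium-free KSW (0.0923% and 0.208%). For streptomycin, DESeq2 gave 3 for any difference (0.804%), and the term for sample numbers gave 0 for last against first (0%). Leaving out a letter gave 0 to 2 and 2 to 8, 12 to 18 and 17 to 25, and 0 and 0 to 3. All-gene shares were then 0.0221% to 0.366% and 0.296% to 2.9% in calcium-free KSW. They were 1.04% to 2.43% and 2.59% to 4.49% in cytochalasin D, and 0% to 0.0354% and 0% to 1.06% in streptomycin. Fitted alone, cytochalasin D gave 7 (T0) and 28 (any time point) genes between letter pairs (3.24% and 7.39% of all genes), and streptomycin 15 at T0 (7.51%). For D to F against A to C, calcium-free KSW gave 20 (16.8%) and streptomycin 1 (2.73%). The test between recovery series gave 6 genes with no filter (0.243% of all genes) and 0 to 1 with a letter left out (0.0192% to 0.568%). The tests within a pattern gave 5 (T3 against T1) and 1 (T4 against T2) with no filter in the recovery series, against 0.0856% and 0.0336% of all genes. The cause of these moves was not tested, except that summing pairs and leaving out letters leave fewer libraries.

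Of the named genes' log2 changes, 432 values under alternatives kept their direction and side, 35 lost and 15 gained a call, and 4 turned round, none of them called: NVE22805 in cytochalasin D to -0.011 with no filter and, with a letter left out, values of -0.069 to 0.14 that were below 0 without letter B; and, with the term for sample numbers, NVE22345 to 0.32 and NVE6912 to 0.91 in streptomycin. At 2.07 to 9.46 CPM per read, changes of genes near 20 CPM rest on few reads.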
